A study of Mus musculus with 6 samples.

Results

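A set of 7 genes that encode RNA-binding proteins of cytokine mRNA decay was followed in mouse lung group 2 innate lymphoid cells (ILC2s), lymphocytes without rearranged antigen receptors that make type 2 cytokines. The genes were taken by symbol: Zfp36, Zfp36l1 and Zfp36l2, the Regnase genes Zc3h12a and Zc3h12d, and the Roquin genes Rc3h1 and Rc3h2. All 7 were among the 21825 genes of the deposited table, and all 7 had enough counts to be tested. The cells were sorted from lungs of BALB/c mice aged 6 weeks after 3 intraperitoneal injections of 1 µg IL-33, an alarmin that activates ILC2s. Culture lasted 48 h with 40 ng/mL TNFa or with PBS, in medium holding 10 ng/mL each of IL-2 and of IL-7, so cells of both groups had met IL-33, IL-2 and IL-7. There were 3 TNFa libraries (replicates 4 to 6) and 3 PBS libraries (replicates 1 to 3), of which PBS replicate 2 is labelled a repeat. Neither separate cultures nor separate animals are stated for the libraries, so each p-value reflects the spread between libraries, and that may be technical.

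The proteins act on short elements in the 3′ untranslated region (3′UTR) of their targets. ZFP36 (tristetraprolin) and its relatives ZFP36L1 and ZFP36L2 bind AU-rich elements through CCCH zinc fingers and recruit the CCR4-NOT deadenylase, which removes the poly(A) tail. Regnase-1, the product of Zc3h12a, is an endonuclease that cuts mRNAs at stem-loops with a pyrimidine-purine-pyrimidine loop. Roquin-1 and Roquin-2, from Rc3h1 and Rc3h2, bind the same kind of stem-loop and also recruit CCR4-NOT; loss of Roquin function in mouse T cells is known for raising Icos. TNF and GM-CSF mRNAs are classical targets of ZFP36, and Icos and Tnf mRNAs are classical targets of Roquin.

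The elements themselves were read from the reference transcripts of GENCODE M21 (mm10), since BALB/c sequence was not used here. In each gene's longest 3′UTR among coding transcripts, the letters TATTTAT, the core of the ZFP36 site, were searched on the mRNA strand, with overlapping matches counted. They occurred in 5 of the 7 decay factor genes, 3 times each in Zfp36, Zfp36l1, Zfp36l2 and Rc3h2 and 2 times in Rc3h1. Of all 14507 3′UTRs read, 30.3% held them. Among 3′UTRs of similar length (within about 20%), the share was 19.98% for Zfp36 (774 bases), 38.1% for Zfp36l1, 37.8% for Zfp36l2, 69.2% for Rc3h2 and 78.2% for Rc3h1. Zc3h12a and Zc3h12d had no such match. The windows below are shown because they place the element in the mRNAs of the ZFP36 genes themselves beside those of 2 classical targets; capitals mark TATTTAT.
Zfp36 (chr7:28376958-28376987, minus strand): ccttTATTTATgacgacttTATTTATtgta
Zfp36l1 (chr12:80108422-80108451, minus strand): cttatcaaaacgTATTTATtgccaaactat
Zfp36l2 (chr17:84184914-84184943, minus strand): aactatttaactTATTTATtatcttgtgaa
Tnf (chr17:35199678-35199707, minus strand): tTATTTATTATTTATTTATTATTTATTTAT
Csf2 (chr11:54247325-54247354, minus strand): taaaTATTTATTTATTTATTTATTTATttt

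Stem-loops were sought as 5 Watson-Crick pairs closed over a loop of 3 bases, pyrimidine, purine and pyrimidine. They were found in the 3′UTRs of Zc3h12a, Rc3h1 and Rc3h2 and not in those of the other 4 decay factor genes; 24.2% of all 3′UTRs held at least 1. Among 3′UTRs of similar length the share was 16.8% for Zc3h12a, 69.3% for Rc3h1 and 62.0% for Rc3h2. The lines below show the stem-loop known from Tnf and the most similar one in Icos. They also show 13 bases that Rc3h1 and Rc3h2 both hold, and a Zc3h12a stem-loop. Capitals mark stem and loop. These 13 bases occurred in 5 of the 14507 3′UTRs. Rc3h1 and Rc3h2 share a second stem-loop of 13 bases, all A or T and not shown, which occurred in 51 3′UTRs. The inner letters TTCTGTGAA lie in the Tnf, Icos, Rc3h1 and Rc3h2 elements and in 2.74% of all 3′UTRs, and in 9.95% and 7.98% of those as long as the 3′UTRs of Rc3h1 and Rc3h2. A match describes the letters only, not a bound site.
Tnf (chr17:35199581-35199603, minus strand): acatgTTTTCTGTGAAAAcggag
Icos (chr1:60999482-60999504, plus strand): acaaaATTTCTGTGAAATaaaat
Rc3h1 (chr1:160971656-160971678, plus strand): caataACTTCTGTGAAGTtgcct
Rc3h2 (chr2:37373805-37373827, minus strand): aattaACTTCTGTGAAGTtgttt
Zc3h12a (chr4:125118883-125118905, minus strand): agttaGGCACCATGTGCCtgctc

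Libraries held 25089414.5 to 32487003.6 counts with TNFa and 29185441.6 to 30908756.7 with PBS. TNFa replicate 5 stood apart, with a score of 90.4 on the first principal component (35.6% of the variance) against -22.6 to -14.6 in the other 5 libraries, so values that rest on it are also given without it. Between TNFa and PBS, 16 of 15719 tested genes passed edgeR's quasi-likelihood test at a Benjamini-Hochberg adjusted p under 0.05, or 0.102% of those tested, and of 6 NF-kB response genes Nfkbia, Nfkb2, Birc3 and Traf1 rose, where 0.0891% of all genes did. All 6 had a higher mean with any library left out, but the number that passed was 0 without PBS replicate 1, PBS replicate 3, TNFa replicate 4 or TNFa replicate 6, 1 without PBS replicate 2, and 6 without TNFa replicate 5 or in DESeq2; it was 0 with no low-count filter. ILC2 markers summed to between 9791 and 10720 CPM (counts scaled to the library total with TMM factors) with TNFa and between 9008 and 10220 CPM with PBS, led by Il5 and Il2ra, with all 12 listed markers detected (the lowest, Thy1, at 3.06 CPM); of these markers only Icos passed the test. Mast cell markers summed to 1267 to 1446 CPM with TNFa and 1189 to 1352 CPM with PBS, led by Tpsab1 and Cma1. T cell markers summed to 358.9 to 419.8 CPM with TNFa and 425.7 to 458.1 CPM with PBS, led by Trbc2 and Trbc1. Markers of NK cells and other innate lymphocytes, led by Gzmb and Gzma, summed to 94.2 to 118.7 CPM with TNFa and 184.8 to 226.2 CPM with PBS. Of the NK-type markers, Gzmb stood at 87.5 CPM with TNFa and 152.8 CPM with PBS, and Gzma at 13.4 CPM with TNFa and 50.4 CPM with PBS. Together they made up most of the NK-type sum, whose lowest marker, Klrb1c, was at 0.136 CPM. In the T cell sum the lowest marker, Cd8a, was at 0.723 CPM. The mast, T and NK-type sums were clearly above 0 in ILC2-sorted cells, but do not show which cells held these RNAs. Their part in the values below was not tested. B cell markers, led by Cd79b and Ms4a1, summed to 13.8 to 16.5 CPM with TNFa and 20.2 to 20.6 CPM with PBS. Myeloid markers, led by Chil3 and Lyz2, summed to 15.1 to 54.5 CPM with TNFa and 41.9 to 99.0 CPM with PBS. Structural markers, led by Pecam1 and by Scgb1a1 (42.4 CPM with TNFa and 4.73 CPM with PBS), summed to 142.6 to 198 CPM with TNFa and 119.2 to 153 CPM with PBS. In bulk RNA, fewer cells of a type and less RNA per cell cannot be told apart.

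All 7 decay factor genes were transcribed in both groups, and the ZFP36 family was the most abundant. Per kilobase of exon, Zfp36l2 stood highest, at 19.2 ± 1.66 CPM per kb with TNFa and 19.6 ± 3.14 CPM per kb with PBS (SD, n = 3 each here and below). Zfp36l1 followed at 13.1 ± 0.746 CPM per kb with TNFa and 13.7 ± 1.88 CPM per kb with PBS, and Zfp36 came next at 8.09 ± 0.407 CPM per kb with TNFa and 9.99 ± 0.749 CPM per kb with PBS. By this length, the best known member of the family was its least abundant: Zfp36l2 exceeded Zfp36 by 2.37-fold with TNFa and by 1.96-fold with PBS. With the longest annotated transcript as the length, Zfp36 was at 10.1 CPM per kb with TNFa and 12.4 CPM per kb with PBS, and its PBS range overlapped that of Zfp36l1. Averaged over the 6 libraries, Zfp36l2 lay above 80.9% of the 15661 tested genes with a known length, Zfp36l1 above 74.8% and Zfp36 above 67.6%.

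Below the ZFP36 family, Zc3h12a stood at 4.74 ± 0.315 CPM per kb with TNFa and 4.26 ± 0.381 CPM per kb with PBS. Rc3h1 was at 1.99 ± 0.264 CPM per kb with TNFa and 2.48 ± 0.312 CPM per kb with PBS, and Rc3h2 at 1.21 ± 0.0831 CPM per kb with TNFa and 1.38 ± 0.284 CPM per kb with PBS. Zc3h12d, which encodes Regnase-4, was lowest at 0.932 ± 0.465 CPM per kb with TNFa and 0.710 ± 0.163 CPM per kb with PBS. The ranges of neighbouring genes in this order did not overlap over the 3 libraries of a group, except for Rc3h2 and Zc3h12d with TNFa. The order of the Roquin genes depends on the length used: with the longest annotated transcript in place of all exons, Rc3h2 came above Rc3h1, at 2.65 against 2.04 CPM per kb with TNFa and 3.04 against 2.55 CPM per kb with PBS, and their PBS ranges overlapped. Rc3h2 has 19624 bases of annotated exon but a longest transcript of 8948 bases.

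**Figure D1:**
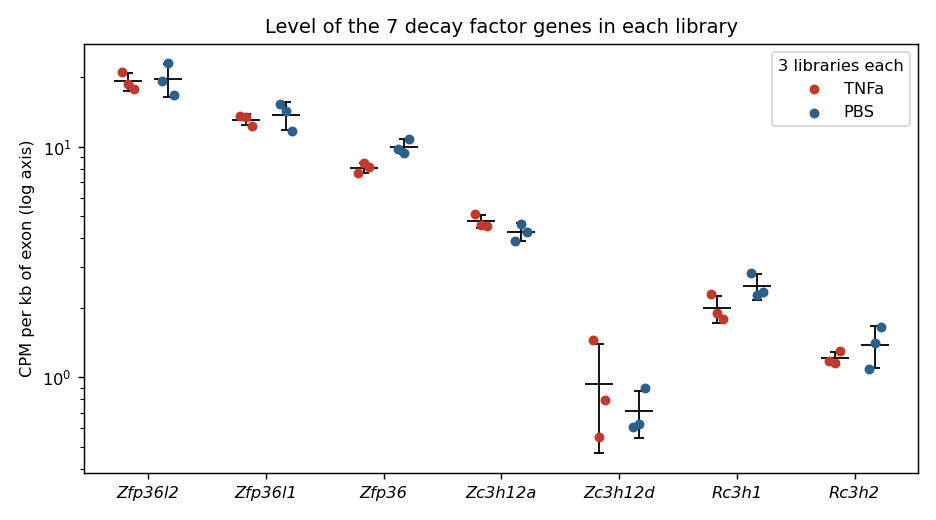
Length-scaled level (CPM per kb of exon, log axis) of the 7 decay factor genes in each library, TNFa in red left of PBS in blue; bars give the mean and SD of 3 libraries. Zfp36l2 lies highest in every library, between 16.7 and 23.0 CPM per kb, and the Zc3h12d points are the most scattered.

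None of the 7 genes passed the test between TNFa and PBS, against a background of 0.102% of all genes. The median of their log2 fold changes was -0.07, where all tested genes had a median of 0.00469, and 5 of the 7 had a lower mean with TNFa, as 49.4% of all genes did. At an unadjusted p under 0.05 none of the 7 stood out either, where 8.31% of all genes did (3.68% higher and 4.63% lower). DESeq2 called 0 of the 7 and 1.39% of all genes (0.687% higher and 0.7% lower). The 95% intervals, which are not adjusted for the number of genes, reached from 0.614-fold to 1.49-fold over 6 of the genes; that of Zc3h12d was wider.

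Zfp36, whose protein is the founding member of the family, came closest to the threshold. It had 26.6, 29.3 and 28.4 CPM in TNFa replicates 4, 5 and 6, against 33.8, 32.7 and 37.6 CPM in PBS replicates 1, 2 and 3. Every TNFa library was below every PBS library, which held in the lower direction for 8.35% of all genes. The log2 fold change was -0.30 ± 0.14 (SE), or 0.810-fold with a 95% interval of 0.651 to 1.01, and edgeR gave an adjusted p of 0.62. Leaving out single libraries gave -0.35 to -0.24, with an adjusted p of 0.44 without TNFa replicate 5. The T, B and NK-type marker sums separated the groups in the same direction; their part in the Zfp36 values was not tested.

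Zfp36l1 and Zfp36l2, whose proteins share the zinc fingers and are known in mouse lymphocyte development for restraining the cell cycle, gave overlapping groups. Zfp36l1 had 40.6, 40.4 and 36.6 CPM in the TNFa libraries, against 45.8, 42.5 and 34.8 CPM in the PBS libraries. The TNFa values all lay inside the range of the PBS values (log2 fold change -0.07 ± 0.15, adjusted p = 0.94 in edgeR). Zfp36l2 had 74.3, 65.8 and 63.0 CPM in the TNFa libraries, against 67.9, 81.0 and 59.0 CPM in the PBS libraries. These too lay inside the PBS range (log2 fold change -0.03 ± 0.14, 95% interval 0.782-fold to 1.22-fold, adjusted p = 0.97 in edgeR). Leaving out 1 library turned the sign for each of them: the Zfp36l1 value was 0.02 without PBS replicate 1, and the Zfp36l2 value was 0.09 without PBS replicate 2 and 0.01 without TNFa replicate 6.

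The Regnase genes had higher means with TNFa but did not pass. Zc3h12a had 14.7, 13.2 and 13.1 CPM in the TNFa libraries, against 11.2, 13.4 and 12.3 CPM in the PBS libraries. TNFa replicate 4 was the highest of the 6 and the groups overlapped through PBS replicate 2 (log2 fold change 0.15 ± 0.19, 95% interval 0.829-fold to 1.49-fold, adjusted p = 0.87 in edgeR). Zc3h12d had 5.93, 2.24 and 3.27 CPM in the TNFa libraries, from 150, 60 and 108 counts, against 2.49, 2.55 and 3.67 CPM in the PBS libraries, from 73, 75 and 116 counts. Its lowest and its highest library were both TNFa ones (log2 fold change 0.39 ± 0.42, 95% interval 0.680-fold to 2.52-fold, adjusted p = 0.85 in edgeR). Without TNFa replicate 4 the log2 fold change was -0.08, so the direction rested on that library.

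The Roquin genes had lower means with TNFa and did not pass. Rc3h1 had 25.9, 21.5 and 20.1 CPM in the TNFa libraries, against 32.1, 25.7 and 26.5 CPM in the PBS libraries. Only TNFa replicate 4 reached into the PBS range, where it lay just above PBS replicate 2 (log2 fold change -0.32 ± 0.17, 95% interval 0.614-fold to 1.04-fold, adjusted p = 0.68 in edgeR). Rc3h2 had 23.0, 22.5 and 25.6 CPM in the TNFa libraries, against 21.3, 27.7 and 32.4 CPM in the PBS libraries. PBS replicate 1 was below all TNFa libraries (log2 fold change -0.20 ± 0.18, adjusted p = 0.82 in edgeR). The PBS library with the least Rc3h2 was the one with the most Rc3h1, and the 2 genes together gave 48.8, 44.0 and 45.7 CPM in the TNFa libraries, against 53.5, 53.4 and 58.9 CPM in the PBS libraries. These sums did not overlap between the groups; they carry no test, and 8.35% of all single genes were lower without overlap. Neither Roquin gene separated the groups alone. The T, B and NK-type marker sums were lower in the same libraries, and their part in the Roquin values was not tested.

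**Figure D2:**
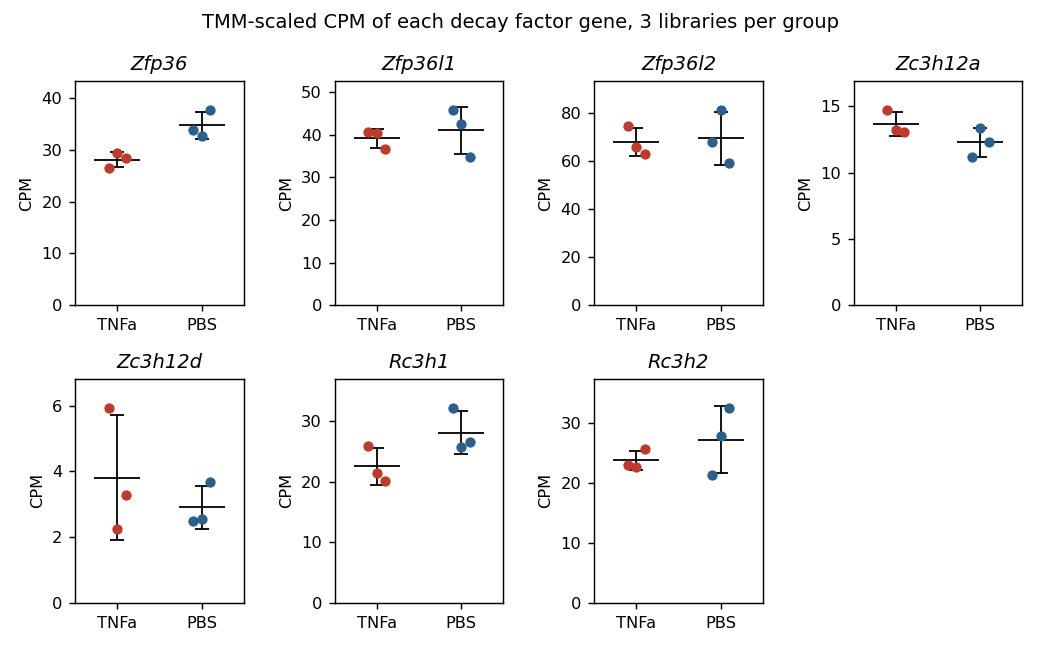
TMM-scaled CPM of each decay factor gene in the 3 TNFa libraries (red, left) and the 3 PBS libraries (blue, right), with mean and SD; each panel has its own axis from 0. Only the Zfp36 groups do not overlap, at 26.6 to 29.3 CPM with TNFa and 32.7 to 37.6 CPM with PBS.

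Summed over all 7 genes, the length-scaled level was 49.3 ± 2.83 CPM per kb with TNFa and 52.2 ± 3.61 CPM per kb with PBS, with overlapping groups. The ZFP36 family made up most of this sum, 40.4 ± 2.01 CPM per kb with TNFa and 43.3 ± 3.78 CPM per kb with PBS. The Regnase pair contributed 5.67 ± 0.769 CPM per kb with TNFa and 4.97 ± 0.424 CPM per kb with PBS, and the Roquin pair 3.20 ± 0.227 CPM per kb with TNFa and 3.87 ± 0.164 CPM per kb with PBS. Zc3h12a took 9.62 ± 0.203% of the summed level with TNFa and 8.19 ± 0.754% with PBS, the share of Zfp36 being 16.5 ± 1.61% with TNFa and 19.3 ± 2.82% with PBS. The largest share, that of Zfp36l2, was 38.9 ± 1.16% with TNFa and 37.5 ± 3.49% with PBS. Shares of 1 sum depend on each other and carry no test here, and the CPM of Zc3h12a overlapped between the groups.

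**Figure D3:**
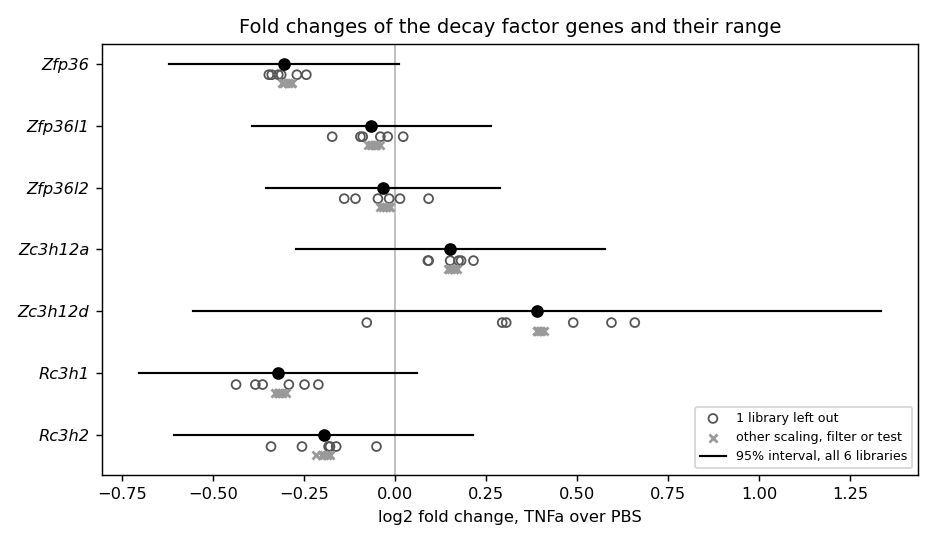
Log2 fold change (TNFa over PBS) of each decay factor gene with its unadjusted 95% interval (line), the values with 1 library left out (open circles) and those under another scaling, filter or test (crosses). Every interval holds 0, and the values with 1 library left out cross 0 for Zfp36l1, Zfp36l2 and Zc3h12d.

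The relatives outside the 7 did not pass either. Zc3h12c, which encodes Regnase-3, was at 14.96 ± 3.58 CPM with TNFa and 15.1 ± 1.22 CPM with PBS, or 2.19 ± 0.523 CPM per kb with TNFa and 2.21 ± 0.178 CPM per kb with PBS, a length-scaled level above that of Zc3h12d (log2 fold change -0.01 ± 0.21, adjusted p = 0.99 in edgeR). Zc3h12b, the gene of Regnase-2, had 0.909, 2.65 and 0.847 CPM in the TNFa libraries, against 0.239, 0.748 and 0.697 CPM in the PBS libraries. All TNFa values were above the PBS values, as held for 6.85% of all genes. TNFa replicate 5, the library that stood apart, was the highest (log2 fold change 1.38 ± 0.68, adjusted p = 0.65 in edgeR), and without it the log2 fold change was 0.64. Zfp36l3 was not among the genes of the deposited table.

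Taken over both target lists described below, the known targets of these proteins did not share a direction. Of 15 mRNAs listed as AU-rich targets of the ZFP36 family, 13 were tested (Il3 and Il17a were not among the genes of the deposited table). All 13 had a higher mean with TNFa, where 49.4% of all genes had a lower mean. Their median log2 fold change was 0.43 against 0.00469 over all genes. None passed in edgeR and 2, Csf2 and Ifng, passed in DESeq2, which called 0.687% of all genes higher. The groups did not overlap for 4, Csf2, Tnf, Ifng and Il2, where 6.85% of all genes were higher without overlap. Ifng and Il2 were named after their values were seen. The Il2 groups barely separated, at 0.575 CPM in TNFa replicate 6 against 0.570 CPM in PBS replicate 3. Effector cytokines were already known to lean higher in these libraries, so the count is no independent support. The count of higher means was 9 without TNFa replicate 4, 10 without PBS replicate 1 and 12 without TNFa replicate 5. Only 6 of the 13 had a mean of at least 5 CPM, and their median was 0.23 with that filter.

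Csf2, which encodes GM-CSF, had 628.7, 678.4 and 591 CPM in the TNFa libraries, against 422.1, 377.3 and 344.9 CPM in the PBS libraries. It missed the threshold (log2 fold change 0.73 ± 0.11, adjusted p = 0.056 in edgeR) and passed it without TNFa replicate 5 (adjusted p = 0.018 in edgeR). Tnf had 23.95, 20.7 and 19.8 CPM in the TNFa libraries, against 17.5, 13.1 and 13.3 CPM in the PBS libraries (log2 fold change 0.56 ± 0.19, adjusted p = 0.43 in edgeR). Both mRNAs carry the repeated TATTTAT elements printed above, 9 in the 317 bases of the Csf2 3′UTR and 8 in the 764 bases of Tnf. Ifng, the gene of interferon gamma, had 4.07, 1.98 and 12.2 CPM in the TNFa libraries, against 0.579, 0.204 and 1.68 CPM in the PBS libraries, with TNFa replicate 6 the highest (log2 fold change 2.88 ± 0.81, adjusted p = 0.35 in edgeR and 0.011 in DESeq2). Its log2 fold change was 1.87 without TNFa replicate 6, 3.95 without PBS replicate 3, 3.30 without TNFa replicate 5 and 2.43 without PBS replicate 2. Il2, a growth factor of lymphocytes, stayed below 0.8 CPM in every library (log2 fold change 0.43 ± 0.58, adjusted p = 0.89 in edgeR). The early response gene Ier3 and the anti-inflammatory cytokine gene Il10 gave 0.08 ± 0.13 and 0.14 ± 0.23 on the log2 scale (edgeR adjusted p = 0.91 for each), and Il10 turned to -0.16 without TNFa replicate 5.

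Of 12 genes outside the 7 that were listed as Regnase or Roquin targets, 11 were tested (Il12b was not among the genes of the deposited table). Of the 11, 7 had a higher and 4 a lower mean, with a median log2 fold change of 0.08. At an unadjusted edgeR p under 0.05, 1 was higher (Tnf) and 3 lower (Icos, Nfkbiz and Ctla4), where 3.68% and 4.63% of all genes were. The groups did not overlap for 2 higher (Tnf and Il2) and the same 3 lower genes, where 6.85% and 8.35% of all genes did not. The list was chosen with earlier results known, so these counts are no independent support. Icos, a costimulatory receptor and the best known Roquin target, fell, as 0.0127% of all genes did. It had 524.6, 480.3 and 545.1 CPM in the TNFa libraries, against 939.6, 809.4 and 914 CPM in the PBS libraries. The groups were far apart (log2 fold change -0.78 ± 0.10, adjusted p = 0.036 in edgeR), and the log2 fold change lay between -0.85 and -0.73 with any library left out, although without any library other than TNFa replicate 5 the adjusted p was above 0.05, at 0.11 to 0.37. Rc3h1 and Rc3h2 also had lower means, but neither passed (adjusted p = 0.68 and 0.82 in edgeR). Any link between them and the Icos values was not tested. Nfkbiz, the gene of a nuclear IkB protein, had 25.0, 15.96 and 23.7 CPM in the TNFa libraries, against 34.7, 40.1 and 30.8 CPM in the PBS libraries (log2 fold change -0.71 ± 0.20, adjusted p = 0.35 in edgeR). TNFa replicate 5 was the lowest, and leaving out single libraries gave Nfkbiz log2 fold changes of -0.83 to -0.54. Ctla4, an inhibitory receptor named after its values were seen, had 4.39, 5.16 and 4.87 CPM in the TNFa libraries, against 6.17, 8.03 and 8.77 CPM in the PBS libraries (log2 fold change -0.67 ± 0.27, adjusted p = 0.52 in edgeR). Tnfrsf4, which encodes the costimulatory receptor OX40, gave a log2 fold change of 0.12 ± 0.16 (edgeR adjusted p = 0.88). Tnf, Il2, Il6, Ier3 and Ptgs2 stand in both target lists.

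**Figure D4:**
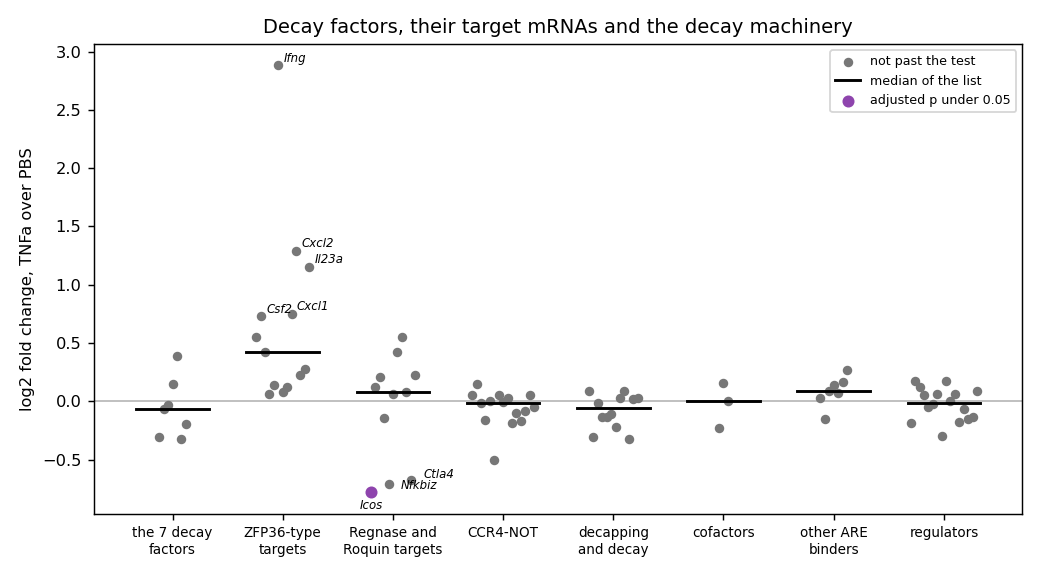
Log2 fold change (TNFa over PBS) of the tested genes of each list other than the relatives and the NF-kB response genes, 1 point a gene, with the list's median as a bar and the median of all tested genes as a grey line. Icos is the only gene shown that passed the test; the 13 ZFP36-type targets all lie above 0 and the lists of decay machinery lie around it.

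None of the genes of the machinery that these factors recruit passed the test. In the CCR4-NOT list, which also holds the Tob and Btg adaptors, 0 of 15 tested genes passed in edgeR or in DESeq2. Of the 15, 1 had an unadjusted p under 0.05, where 8.31% of all genes did, and the median log2 fold change was -0.02. The highest CPM belonged to the adaptor Btg1 (220.2 ± 14.7 CPM with TNFa and 212.5 ± 7.48 CPM with PBS), the catalytic subunit Cnot6 (190.8 ± 20.8 CPM with TNFa and 190.6 ± 14.6 CPM with PBS), the scaffold Cnot1, and Cnot9, which contacts RNA-binding proteins, with log2 fold changes of 0.05 ± 0.10, 0.000788 ± 0.116, 0.05 ± 0.17 and 0.03 ± 0.11. The single gene with a low unadjusted p, named after its values were seen, was Cnot6l, a catalytic paralogue of Cnot6, with 48.6, 71.4 and 50.0 CPM in the TNFa libraries, against 91.4, 75.3 and 73.6 CPM in the PBS libraries. All TNFa values were lower, as held for 8.35% of all genes (log2 fold change -0.50 ± 0.17, adjusted p = 0.43 in edgeR). Without TNFa replicate 5 Cnot6l passed (-0.70, adjusted p = 0.049 in edgeR).

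Among 12 genes of decapping, other deadenylases and exonucleolytic decay, 0 passed in edgeR or DESeq2, with a median log2 fold change of -0.06. Of the 12, 0 had an unadjusted p under 0.05, where 8.31% of all genes did. Edc4 and Edc3, scaffolds of the decapping complex, had log2 fold changes of -0.13 ± 0.18 and -0.14 ± 0.18, and both turned positive without TNFa replicate 5 (0.05 and 0.03). Ddx6, a helicase of repressed mRNPs, and Lsm1, a subunit of the ring that promotes decapping, had -0.11 ± 0.14 and -0.22 ± 0.13. The Regnase-1 partner Upf1, a helicase, its kinase Smg1 and the Roquin cofactor Nufip2 had log2 fold changes of -0.23 ± 0.23, 0.15 ± 0.14 and 0.00460 ± 0.130, with 0 of 3 passing in edgeR or DESeq2; Upf1 was at 0.02 without TNFa replicate 5.

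Other proteins of AU-rich elements include stabilisers such as HuR, the product of Elavl1. Listed with them was the gene of ARID5A, which protects mRNAs from Regnase-1. Of the 7 genes of this list 0 passed in edgeR or DESeq2, and 1 had an unadjusted p under 0.05, where 8.31% of all genes did. The 1 gene was Arid5a, with 216.1, 177.1 and 224.5 CPM in the TNFa libraries, against 170.5, 180.1 and 163.6 CPM in the PBS libraries. TNFa replicate 5 lay within the PBS range (log2 fold change 0.26 ± 0.12, adjusted p = 0.59 in edgeR); without that library the log2 fold change was 0.36 and the adjusted p 0.15 in edgeR. Elavl1, Hnrnpd (AUF1) and Celf1 had log2 fold changes of 0.03 ± 0.12, 0.09 ± 0.10 and 0.16 ± 0.13.

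Genes that control the decay factors at the protein level were examined last: the p38 and MK2 kinases that phosphorylate ZFP36, the 14-3-3 proteins that then bind it, the MALT1 protease, which cleaves Regnase-1 and Roquin, and IKK, which marks Regnase-1 for degradation. Of 16 tested, 0 passed in edgeR or DESeq2, with a median log2 fold change of -0.01. Of the 16, 0 had an unadjusted p under 0.05, where 8.31% of all genes did. The 14-3-3 genes Ywhaz (1563 ± 200.8 CPM with TNFa and 1735 ± 57.8 CPM with PBS) and Ywhab (833.9 ± 87.1 CPM with TNFa and 915.5 ± 44.7 CPM with PBS) had the highest CPM among them. Ppp2ca, the catalytic subunit of protein phosphatase 2A, had a log2 fold change of -0.05 ± 0.12, which was 0.06 without TNFa replicate 5. Mapkapk2 (MK2) was higher in every TNFa library (log2 fold change 0.18 ± 0.10, adjusted p = 0.70 in edgeR), while Mapk14 (p38), named after its values were seen, was lower in every TNFa library (-0.18 ± 0.10, adjusted p = 0.70 in edgeR). Over all genes, 6.85% were higher and 8.35% lower without overlap. Protein levels and phosphorylation, through which much of this control acts, were not measured.

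The genes whose log2 CPM over the 6 libraries ran most like each decay factor were found by Pearson's r among 8749 tested genes of at least 10 CPM (8750 for Zc3h12d). With so many genes and only 6 libraries, which share the sort and 2 treatments, values near 1 arise readily, so they are given as a description. The closest were Mrpl44 (0.988) and Stab2 (0.975) for Zfp36, Cpne1 (0.987) and Alyref (0.985) for Zfp36l1, and Chst12 (0.975) and Snrpa (0.972) for Zfp36l2. For the Regnase genes they were Ipo11 (0.991) and St6gal1 (0.961) with Zc3h12a and Ptp4a1 (0.988) and Bmt2 (0.980) with Zc3h12d. For the Roquin genes they were Slc16a6 (0.988) and Mindy2 (0.983) with Rc3h1 and Tespa1 (0.988) and Odf2 (0.987) with Rc3h2. No decay factor gene was among the closest 2 of another.

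The 7 genes lie on 7 chromosomes (mm10): Zfp36 on chromosome 7 (28376784 to 28380253, minus strand), Zfp36l1 on chromosome 12 (80107754 to 80113013, minus), Zfp36l2 on chromosome 17 (84183931 to 84187947, minus), Zc3h12a on chromosome 4 (125118423 to 125127840, minus), Zc3h12d on chromosome 10 (7832470 to 7870396, plus), Rc3h1 on chromosome 1 (160906418 to 160974978, plus) and Rc3h2 on chromosome 2 (37370069 to 37422903, minus). Exons of Zfp36, Zfp36l1 and Zfp36l2 overlap an antisense gene each, Gm44710, Gm26669 and AC132455.1. Whether counting used strand is not given in the sources used here, so reads of sense and antisense cannot be told apart. The deposited counts gave Gm26669 at most 13.2 counts a library and AC132455.1 at most 9.09. Gm44710, which overlaps Zfp36, was not among the genes of the deposited table, so no count is available for it.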

How the data were processed

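RNA of 6 libraries of sorted lung ILC2s was sequenced. The authors deposited estimated counts per gene from Partek's E/M quantification, per the file headers; the submitters' processing notes name CASAVA 1.8.2, STAR 3.5.3, Partek and mm10. The sources used here do not give the annotation release or the counting strand. The table held 21825 genes, 41.7% of values whole within 0.01, and 0 further value columns.

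Counts were rounded, kept by filterByExpr (minimum count 10, total 15; 15719 genes), scaled by TMM and tested with edgeR 4.0.16 (R 4.3.3), quasi-likelihood, robust, with Benjamini-Hochberg adjustment over all tested genes at 0.05. CPM were TMM-scaled; lengths and 3′UTRs came from GENCODE M21. The median log2 fold change of all genes was 0.00469. Library totals were 25089414.5 to 32487003.6 counts; both counting error and the spread between 3 libraries bear on genes of few counts, such as Il2 and Zc3h12b. The scripts were tested on simulated data.

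The members and lists (targets, CCR4-NOT, decapping, cofactors, AU-rich binders, regulators, relatives, NF-kB response, cell markers) were chosen with earlier results of these data known. Named were all 7 genes, the relatives, called list genes and the 4 of highest CPM per list, the 2 genes most alike per member and the top 2 markers per cell type; exceptions are named as such. Alternatives were RLE scaling, totals only, DESeq2 1.42.0, no or a stricter filter (5 CPM), non-robust fitting, a length trend, the longest transcript and leaving out each library.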

Additional observations from a re-analysis of the deposited data

How the results depend on the processing

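None of the 7 decay factor genes passed the test under any alternative run. The count of called genes was 16; it was 13 with library totals only, 218 with DESeq2 (108 higher, 110 lower), 3 with no low-count filter, 25 with a filter at 5 CPM, 15 without robust fitting, 22 with a length trend, and 1 to 67 with 1 library left out, the 67 without TNFa replicate 5 (38 higher, 29 lower). All 16 were among the DESeq2 calls and among the 67. Leaving out 1 library turned the sign of Zfp36l1 (range -0.173 to 0.022), Zfp36l2 (-0.14 to 0.0918) and Zc3h12d (-0.078 to 0.658) and not that of Zfp36 (-0.347 to -0.244), Zc3h12a (0.0898 to 0.215), Rc3h1 (-0.437 to -0.211) or Rc3h2 (-0.341 to -0.0514). It also turned Il10 (-0.156 to 0.298), Cnot1 (-0.0631 to 0.241), Cnot6 (-0.0943 to 0.0597), Cnot9 (-0.0522 to 0.116), Btg1 (-0.00822 to 0.0858), Edc3 (-0.368 to 0.0295), Edc4 (-0.307 to 0.0465), Upf1 (-0.489 to 0.0166), Nufip2 (-0.071 to 0.0852), Elavl1 (-0.0553 to 0.111), Ppp2ca (-0.15 to 0.0568) and Zc3h12c (-0.231 to 0.0866). Values close to 0 changed sign elsewhere: Cnot6 was -0.000118 with totals only and -0.00584 with no filter, Nufip2 was -0.00193 with no filter, and Zc3h12c was 0.00518 with the 5 CPM filter and 0.0129 with the length trend. With the longest transcript, Zfp36 was at 10.1 CPM per kb with TNFa and 12.4 with PBS, and Rc3h2 at 2.65 with TNFa and 3.04 with PBS; the lengths alone differ there. Icos missed the threshold with no filter (adjusted p = 0.064 in edgeR). Csf2 passed with totals only (adjusted p = 0.041), the 5 CPM filter (0.018) and the length trend (0.045) in edgeR and in DESeq2 (2.7e-06). Of the 6 NF-kB response genes, 4 passed; 0 did with no filter, 3 with totals only, 6 in DESeq2 and 0 to 6 with 1 library left out. Zc3h12d could not be tested with the 5 CPM filter. Where the cause of a change is not given, the cause was not tested. No paired analysis was possible because the groups share no replicate numbers. Depth limits the genes of few counts: Il2 had at most 20.3 counts in a library and Zc3h12b 7.33 in the lowest, and Zc3h12d had 60 to 150.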

Other observations

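Over all tested genes with a 3′UTR, the log2 fold change between TNFa and PBS was set beside the number of TATTTAT copies in the 3′UTR. The median was 0.07 in 543 genes with 3 or more copies, 0.00408 in 841 genes with 2, -0.0075 in 2389 genes with 1 and -0.02 in 8594 genes with none. The median 3′UTR length differed as well, at 3403, 2657, 1884 and 861 bases in the same order, so copy number and length cannot be told apart in these medians. Of the called genes with a 3′UTR, 9 that rose and the 2 that fell had no copy, 2 that rose had 2 copies and 2 had 3 or more. The values are a description and carry no test.

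Zc3h12a holds 3 of the stem-loops in a 3′UTR of 856 bases. The other 2 are shown here because their letters differ from the first, with stem and loop in capitals (mm10, chromosome 4, minus strand).
Zc3h12a (chr4:125119065-125119087): tgttgATACACATTGTATctctg
Zc3h12a (chr4:125118659-125118681): gagatTTAAATATTTTAAatgaa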
